A study of Mus musculus with 15 samples.

Results

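Of 9 mouse peripheral T cell lymphomas (mPTCL), 4 carried a high signal for Trgv1, a variable gene segment of the T cell receptor gamma chain, and 5 did not. The 4 lymphomas (mPTCL 3, 4, 7 and 9) were selected on the deposited Trgv1 signal itself, which is read by 1 probe set, so that signal is given here as a description and was left out of every comparison. It was 26768.5 in mPTCL 3, 22554.7 in mPTCL 4, 9422.21 in mPTCL 9 and 2338.82 in mPTCL 7, the lymphoma just inside the limit. In the other 5 it was 706.97 in mPTCL 1, the lymphoma just outside, and 144.357, 82.7167, 65.7686 and 13.4878 in mPTCL 5, 8, 6 and 2. The labels do not name these sets: all 9 lymphomas carry the same label.

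The study hybridised 15 RNA samples to 3' expression arrays. CD3-deficient C57BL/6 mice (CD3KO) were injected with T cells lacking p53 (p53KO) and developed the 9 lymphomas, and tumour cells were sorted from the liver. The other 6 arrays hold normal p53KO T cells of 5-week-old C57Bl/6 mice, 3 resting and 3 activated in vitro, sorted from liver or spleen. Lack of p53 was therefore shared by all cells compared. CD3-deficient hosts lack mature T cells of their own but keep B cells, natural killer (NK) cells and myeloid cells, and the labels do not name the markers used in the sort.

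T cells carry an alpha-beta or a gamma-delta receptor, and both are held at the cell surface by the CD3 chains. The gamma locus can also be rearranged and transcribed in cells that go on to use an alpha-beta receptor, so RNA of a gamma segment does not by itself give the receptor a cell displays. Gamma-delta T cells are frequent in the liver and often carry receptors of the NK type.

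Other receptor probe sets are given here as deposited signals, on the linear scale. One probe set that the platform annotation assigns to both Trgv4 and Trgv2 gave 25754.6, 16420.6, 7449.81 and 27508.7 in mPTCL 3, 4, 7 and 9. The other lymphomas lay between 60.5785 (mPTCL 5) and 3808.11 (mPTCL 2), and the normal T cells between 418.188 and 1836.47. The 4 selected lymphomas thus exceeded every other lymphoma and every normal array at this second reading of the same locus, which is not independent of the choice. The brightest of 3 probe sets for Trgv4 alone was 9600.32, 3495.95 and 13509.2 in mPTCL 3, 4 and 9 but only 89.9543 in mPTCL 7. The 3 Trgv4 probe sets did not agree in every array: another read 18.6557 in mPTCL 3. At the brightest one, the Trgv1-low lymphomas lay between 56.9667 (mPTCL 5) and 1493.14 (mPTCL 2), and normal T cells between 161.717 and 417.389. There, 3 of the 4 lymphomas exceeded all others, and mPTCL 7 lay inside the range of the Trgv1-low set.

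The bright probe sets of an alpha chain segment set the 4 lymphomas apart from each other. Trav9d-3 has 5 probe sets, of which the brightest, which can match several transcripts, was at 985.257 in mPTCL 3 and 1791.06 in mPTCL 4. It was at 18455.3 in mPTCL 7 and 17000.8 in mPTCL 9. The Trgv1-low lymphomas lay between, at 3669.88 to 13137.2, and normal T cells at 19536.7 to 33187.2. At this probe set and at the next 2 in brightness, the 2 lymphomas with the highest Trgv1 were the lowest of all 15 arrays and the other two were the highest lymphomas. Dimmer alpha probe sets did not all follow. Another for Trav9d-3 read 37.9049 and 69.3483 in mPTCL 3 and 4 against 4.60136 and 11.2163 in mPTCL 7 and 9, Trav6-3 was lowest in mPTCL 9 (3.45997) and Trav12n-2 in mPTCL 8 (70.1366). For Trbv1, a beta segment, the brightest probe set read 14756.2, 4671.4, 15919.5 and 17579.1 in mPTCL 3, 4, 7 and 9, against 3257.59 to 10238 in the other lymphomas and 15765.9 to 20936.3 in normal T cells. The ranges overlapped through mPTCL 4.

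**Figure D1:**
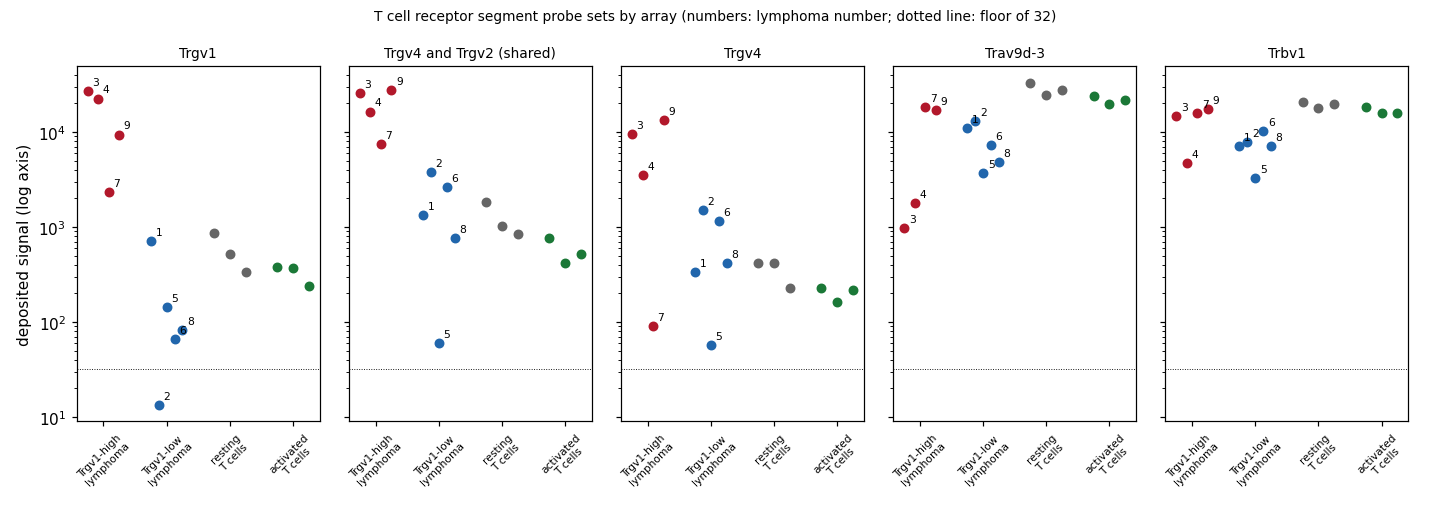
Deposited signal (log axis) of 5 T cell receptor probe sets in each array, with the lymphoma number beside each point and the floor applied before log2, 32, dotted. The Trgv1-high lymphomas exceed all others at the probe set shared by Trgv4 and Trgv2, and split into mPTCL 3 and 4 (985.257 and 1791.06) and mPTCL 7 and 9 (18455.3 and 17000.8) at the brightest Trav9d-3 probe set.

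Expression values are log2 of the deposited signal after raising every signal below 32 to 32, so that 5 is the floor. The 4 and 5 arrays were compared gene by gene in 1 limma fit, and calls required a 2-fold difference or more together with a p below 0.05 after Benjamini-Hochberg adjustment. Of 18193 genes with a probe set, 11901 passed the filter on low signal and were tested. Of these, 649 passed only with the help of the Trgv1-low arrays and 445 only with that of the Trgv1-high arrays, so that a difference is partly built into their selection. Among the genes named below these are Bcat1, Cxcl2, Hdc, Klrc3, Lcn2, Map2, Ncr1 and Tdrd9 on the low side and Khdc1a and Rag1 on the high side. No gene was called higher (0%) and none was called lower (0%). The smallest adjusted p was 0.439. At an unadjusted p under 0.05, 545 genes (4.58% of those tested) were higher in the Trgv1-high lymphomas and 337 (2.83%) were lower. The values of the sets did not overlap for 209 higher genes (1.76%) and 86 lower genes (0.723%). The differences given below are therefore descriptions of these 9 arrays, and the labels do not say whether each came from its own mouse. With all 15 arrays in 1 fit, which takes the spread from the normal T cells too, limma called 18 higher and 7 lower genes, among them 13 of the 24 largest differences without overlap. Normal T cells are another population and can vary less: the SD of Khdc1a was 0 in both normal groups, and 2.47 and 1.28 in the Trgv1-high and Trgv1-low lymphomas. The 24 were also chosen on the same 9 lymphoma arrays, and Khdc1a and Map2, named above for the filter, are among the 13. These calls are therefore no support for a difference.

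Scaling bears on the balance of higher and lower genes. The median log2 signal of the tested genes averaged 9.21 in the Trgv1-high arrays and 9.10 in the others, a difference of 0.108. Of the 882 genes at an unadjusted p under 0.05, 61.8% were higher as deposited. With each array centred on its median, 381 were higher and 457 lower, a share of 45.5%, and the median difference of all genes moved from 0.04 to -0.07. The medians of the NK, neutrophil, B cell, G2 and M phase and immediate early lists stayed negative under median centring and quantile normalization.

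The Trgv1-high lymphomas were no nearer to each other than to the rest over all genes tested. Across genes, which are not independent replicates, Pearson's r was 0.761 to 0.868 (median 0.817) for the 6 pairs of Trgv1-high arrays. It was 0.789 to 0.924 (median 0.878) for the 10 pairs of the other lymphomas and 0.763 to 0.893 (median 0.838) for the 20 pairs between sets. Among the Trgv1-high arrays, mPTCL 3 and 4 (r = 0.868) and mPTCL 7 and 9 (r = 0.861) were the closest pairs. Signals of genes from cells other than T cells varied as well. The mean log2 signal of the 12 tested neutrophil markers was 6.08, 11.97, 6.12 and 8.12 in mPTCL 3, 4, 7 and 9, and 8.11 to 12.31 in the other 5. It was 5.54 to 6.00 in normal T cells. For the 17 tested B cell markers it was 7.16, 8.79, 6.03 and 7.18 against 5.89 to 11.14, with mPTCL 1 (10.59) and mPTCL 5 (11.14) the highest. In mPTCL 3, 4 of the 12 neutrophil markers were at the floor, among them the granule genes Camp and Lcn2. In mPTCL 4 and in mPTCL 1, 2, 5 and 8 none was. In bulk RNA, fewer cells of a type and less RNA per cell cannot be told apart. The Y-linked Eif2s3y was at 12.84, 12.30 and 12.77 in mPTCL 4, 7 and 9 and at the floor in mPTCL 3, where Xist was at 13.71. In mPTCL 1, 2, 5, 6 and 8, Eif2s3y was at 11.93, 12.20, 12.92, 7.65 and 7.90 and Xist at 5.00, 8.91, 6.30, 6.39 and 9.21.

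Several CD3 and signalling genes divided the 4 lymphomas as the bright Trav9d-3 probe sets did. Cd3e, a signalling chain of the receptor complex, was at 5.68, 5.00, 11.72 and 12.28 in mPTCL 3, 4, 7 and 9, and at 9.03 to 11.26 in the other lymphomas. Cd3g, another chain of the complex, was at 12.74, 10.97, 13.29 and 13.98, against 10.14 to 12.88 and a mean of 14.34 in resting T cells. Cd3d was at 10.53, 8.62, 12.60 and 12.80 against 10.27 to 11.92, lowest of the 9 lymphomas in mPTCL 4. Its mean in resting T cells was 13.90. Cd247, the zeta chain, was at 11.40, 10.72, 10.95 and 10.85 against 7.01 to 10.92, with a resting mean of 12.80. mPTCL 3 and 4 thus had Cd3e at or near the floor. The other CD3 chains were well above the floor in both, but below their levels in resting T cells. Zap70, the kinase that binds phosphorylated receptor chains, was at 5.60, 7.64, 11.83 and 11.20, and at 10.99, 11.52, 9.18, 10.86 and 11.08 in mPTCL 1, 2, 5, 6 and 8. Skap1, an adaptor for integrin activation by the receptor, was at 6.16, 5.90, 12.17 and 10.85. Lat, a scaffold of receptor signalling, was at 11.40, 10.76, 12.98 and 8.41, lowest in mPTCL 9. Of 14 tested CD3 and coreceptor genes, 7 had a positive and 7 a negative difference (median 0.12, all genes 0.04). Of these, 0 were higher and 2 (14.3%) lower at an unadjusted p under 0.05, beside 4.58% and 2.83% of all genes.

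Those 2 were Cd4 and Cd2. Cd4, the coreceptor for MHC class II, was at 6.13, 5.00, 5.00 and 5.00 in mPTCL 3, 4, 7 and 9, at or near the floor throughout. It was at 9.08, 10.50, 8.34, 10.15 and 5.00 in mPTCL 1, 2, 5, 6 and 8 and overlapped through mPTCL 8. The difference was -3.33 ± 0.99 (SE, adjusted p = 0.612). Cd2, an adhesion receptor of T and NK cells, was at 5.58, 8.82, 13.12 and 9.25 against 12.76, 13.09, 12.54, 11.93 and 14.14, a difference of -3.70 ± 1.20 (SE, adjusted p = 0.612), and mPTCL 7 lay inside the range of the other lymphomas. Cd8a was at 10.36, 8.46, 8.21 and 13.13, reaching the level of normal T cells only in mPTCL 9 (resting 13.11 ± 0.18, SD, n = 3). Cd5, a brake on receptor signalling, was at 10.02, 7.94, 7.06 and 5.77, and at 7.61, 5.69, 6.52, 6.06 and 7.04 in mPTCL 1, 2, 5, 6 and 8. Resting T cells were at 12.58 ± 0.13, so the low level was shared by both sets.

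Of the Trgv1-high lymphomas, mPTCL 3 and 4 were high for 5 genes known from thymocytes and progenitors, which were picked out after their values were seen. Rag1, which cuts receptor genes for rearrangement, was at 12.85, 10.32, 5.00 and 5.23 in mPTCL 3, 4, 7 and 9, and at 5.00, 5.00, 5.00, 5.00 and 6.28 in the others. Notch1, a receptor needed for T lineage commitment, was at 12.62, 12.46, 8.42 and 8.95 against 8.12 to 9.44, and Notch3 at 9.89, 9.62, 5.39 and 5.79 against 5.57 to 6.72. Kit, the stem cell factor receptor, was at 11.04, 10.52, 5.86 and 7.29 against 5.00 to 7.82. Il2ra, the interleukin 2 receptor alpha chain, was at 13.26, 10.64, 5.94 and 6.02 against 5.00 to 9.84. All 5 genes had both lymphomas with the highest Trgv1 above each of the other 7. Not all 5 set them apart from mature T cells. Notch1 was at a mean of 11.08 in resting and 11.51 in activated T cells, and Il2ra at 10.92 in activated ones, above mPTCL 4. Mean levels of Rag1, Notch3 and Kit in normal T cells were below both lymphomas. Kit also marks mast cells. Cpa3, a protease of mast cells, was at 14.36, 12.04, 7.34 and 7.57 in mPTCL 3, 4, 7 and 9 and at 6.89, 11.22, 5.96, 7.08 and 7.49 in mPTCL 1, 2, 5, 6 and 8, thus highest in mPTCL 3 and 4 too. Ms4a2, a chain of the mast cell IgE receptor named after its values were seen, was at 5.00, 5.61, 5.00 and 5.00. Hdc, another mast cell and basophil marker, was at 8.94, 5.00, 5.45 and 5.00 against 5.07 to 8.66, highest in mPTCL 3. The mean of 5 tested mast cell and basophil markers, Kit and Cpa3 among them, was 8.92, 7.63, 5.79 and 5.97 against 5.43 to 8.06, with 1 and 2 of the 5 at the floor in mPTCL 3 and 4, and its part in the Kit values was not tested. In mPTCL 7 and 9 they were at or near the range of the Trgv1-low lymphomas, and over the set of 4 none had an unadjusted p under 0.05.

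Genes of the gamma-delta programme did not follow the set as a whole. Of 27 tested, 11 had a positive and 16 a negative difference, with a median of -0.29, which became 0.12 with the B cell marker mean and 0.66 with the neutrophil marker mean as a covariate. Sox4, a transcription factor of immature and interleukin 17 producing gamma-delta cells, was at 13.50, 12.30, 5.00 and 7.50 in mPTCL 3, 4, 7 and 9 and at 12.50, 5.00, 6.98, 5.00 and 8.33 in mPTCL 1, 2, 5, 6 and 8. Cd163l1, a scavenger receptor of gamma-delta T cells, was at 14.41, 12.25, 5.00 and 5.00 and 12.75, 5.00, 5.00, 7.81 and 5.94. Both were high in mPTCL 3, 4 and 1. Blk, a kinase of B cells and some gamma-delta T cells, was at 10.25, 10.29, 6.66 and 6.78 and 10.79, 7.19, 12.13, 6.75 and 7.09, highest in mPTCL 1 and 5, which also had the highest B cell marker means. Maf was at 5.91, 9.26, 11.81 and 8.42 and Zbtb16, the factor PLZF of innate-like T cells, at 8.21, 7.76, 5.84 and 10.19 against 5.62 to 7.42. Id3, an inhibitor of E proteins induced by receptor signals, was lower at -1.85 ± 0.55 (SE, adjusted p = 0.612), with 6.25, 7.18, 5.23 and 5.00 against 7.88, 7.24, 8.29, 8.63 and 6.78. Bcl11b, a T lineage factor, was at 13.24, 12.43, 12.54 and 10.24 against 7.66 to 11.70.

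**Figure D2:**
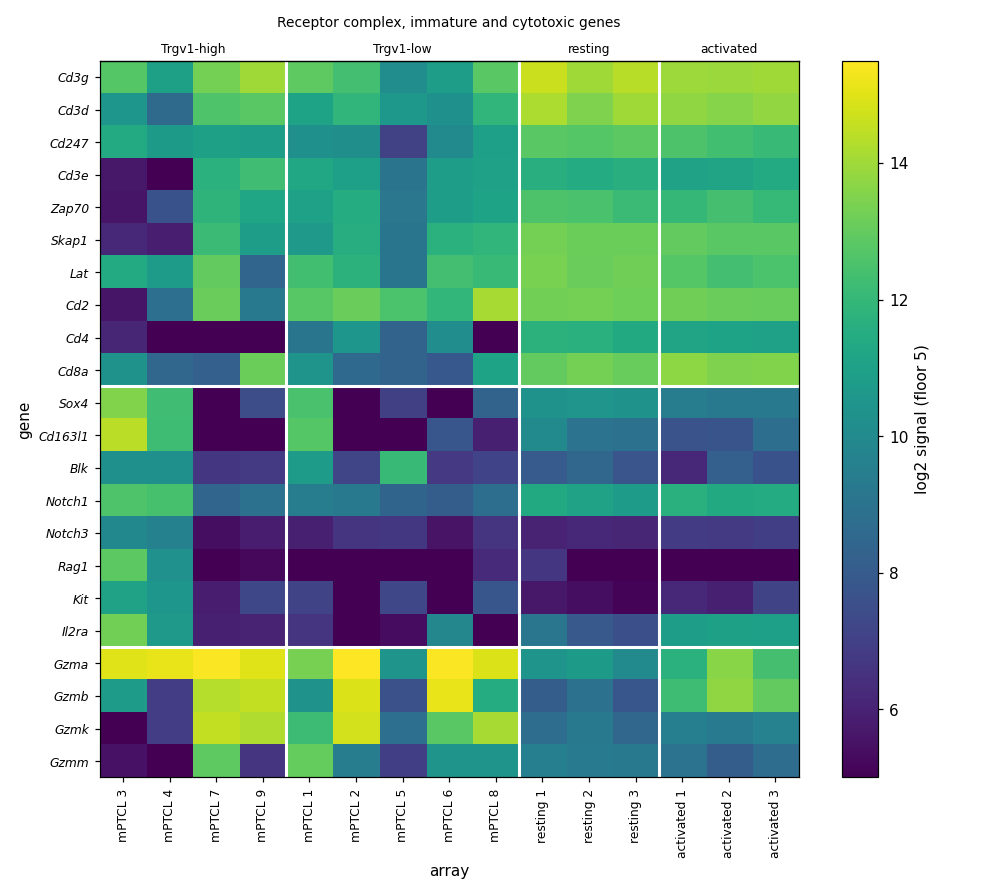
Log2 signal (colour, floor 5) of receptor complex and coreceptor genes (top block), immature and gamma-delta genes (middle) and granzymes (bottom) in each array (columns). Within the Trgv1-high columns, mPTCL 3 and 4 have Cd3e at 5.68 and 5.00 and Rag1 at 12.85 and 10.32, while mPTCL 7 and 9 have Cd3e at 11.72 and 12.28 and Rag1 at 5.00 and 5.23.

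NK receptor genes had the lowest median of the lymphocyte lists. Of 19 tested members, 15 had a negative difference and 4 a positive one, with a median of -1.61 against 0.04 for all genes. At an unadjusted p under 0.05, 6 (31.6%) were lower and 0 higher, beside 2.83% and 4.58% of all genes, and none was without overlap. Of the 19, 3 passed the filter only with the Trgv1-low arrays, 1 of the 6 among them. Per array, the list mean was 6.78, 7.33, 7.14 and 8.60 in mPTCL 3, 4, 7 and 9, and 9.22, 10.12, 7.50, 9.29 and 9.88 in mPTCL 1, 2, 5, 6 and 8. Only mPTCL 5 of the Trgv1-low lymphomas lay inside the range of the Trgv1-high set.

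Klrc1 encodes NKG2A, an inhibitory receptor that pairs with CD94. It was at 5.23, 5.00, 5.00 and 11.40 in mPTCL 3, 4, 7 and 9 and at 12.75, 13.17, 8.51, 14.01 and 11.75 in mPTCL 1, 2, 5, 6 and 8, a difference of -5.38 ± 1.49 (SE, adjusted p = 0.612). The overlap came from mPTCL 9, which exceeded mPTCL 5. Klrk1, the activating receptor NKG2D, was at 6.21, 9.87, 5.66 and 5.99 against 9.48, 13.13, 7.48, 12.30 and 12.73, a difference of -4.09 ± 1.29 (SE, adjusted p = 0.612). Here mPTCL 4 was the highest of its set. Without mPTCL 1, 4 and 5, the difference in Klrk1 was -6.76 with a limma adjusted p of 0.0046, the only member of the list called in that comparison of 3 lymphomas with 3. However, mPTCL 4 was the highest of its set for Klrk1 and mPTCL 1 and 5 were the lowest of theirs. Leaving these arrays out widens the gap by itself, so the call is no support for a difference. Tdrd9, an RNA helicase of the germ line, and the chemokine gene Cxcl2 also passed the threshold without these arrays. Both owe their place among the tested genes to the Trgv1-low arrays, so their calls are no support for a difference either. Tdrd9 was at the floor in all 4 Trgv1-high lymphomas and at 9.64, 13.31, 5.00, 11.01 and 12.55 in mPTCL 1, 2, 5, 6 and 8. Cxcl2 was at 5.00, 11.24, 5.00 and 5.38 and 9.30, 11.40, 14.16, 10.27 and 11.67.

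Klrc2 and Klrc3, activating partners of CD94, were at the floor in at least 3 of 4 Trgv1-high lymphomas. Klrc2 was at 5.00, 5.00, 5.00 and 6.72 against 9.06, 8.92, 5.00, 8.82 and 8.43, a difference of -2.62 ± 0.84 (SE, adjusted p = 0.612). Klrc3 was at the floor in all 4 and at 6.85, 7.75, 5.00, 6.80 and 7.80 in the others, a difference of -1.84 ± 0.54 (SE, adjusted p = 0.612). For both, mPTCL 5 was at the floor as well. Klrg1, an inhibitory receptor of effector cells, was at 7.68, 7.90, 12.38 and 11.52 against 13.04, 15.06, 9.78, 14.03 and 14.43, with a difference of -3.40 ± 1.27 (SE, adjusted p = 0.646). Klrb1b, of the CD161 family, was at 6.19, 7.12, 11.79 and 7.50 against 13.20, 12.49, 7.04, 13.51 and 11.50, with a difference of -3.40 ± 1.46 (SE, adjusted p = 0.661). For Klrg1, mPTCL 7 and 9 lay inside the range of the Trgv1-low lymphomas, and for Klrb1b mPTCL 4, 7 and 9 did. A gene at the floor in a set may differ by more than the value given.

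Klrd1, which encodes CD94, was at 8.86, 9.13, 5.71 and 14.42 in mPTCL 3, 4, 7 and 9 against 10.38, 14.46, 9.36, 13.55 and 13.90, so mPTCL 9 was close to the highest of the others. Ncr1, the NKp46 receptor, was at 6.54, 5.00, 9.39 and 5.00 against 9.27, 11.57, 5.00, 8.44 and 11.16. Neither had an unadjusted p under 0.05. Neutrophil and B cell marker means also differed between arrays, as given above. With the neutrophil mean as a covariate, the difference in Klrc1 was -6.21 and in Klrk1 -3.79. With the B cell mean it was -5.95 and -4.67. Neither covariate gave a call.

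**Figure D3:**
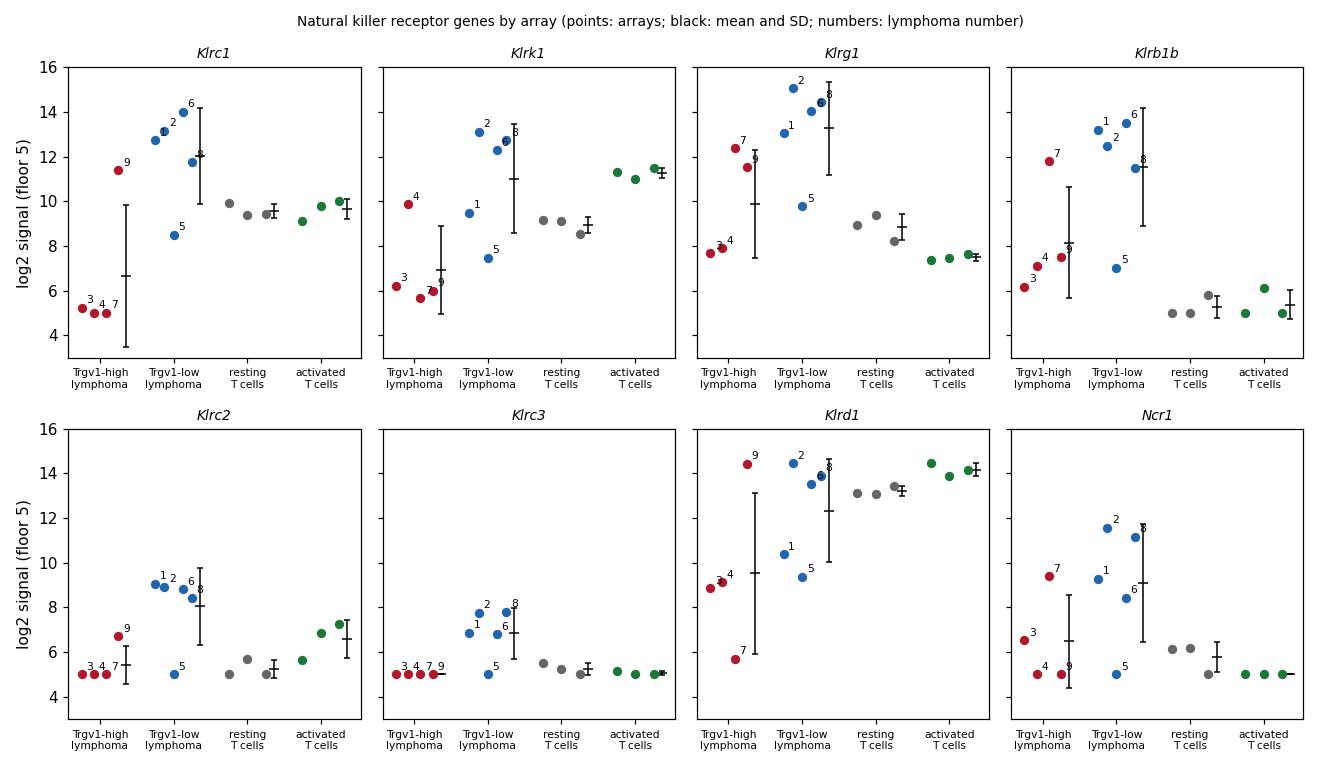
Log2 signal (floor 5) of 8 NK receptor genes in each array, with the lymphoma number beside each point and the mean and SD of each group in black. For Klrc1, mPTCL 3, 4 and 7 are at 5.23 or below and mPTCL 9 is at 11.40, and the Trgv1-low lymphomas range from 8.51 to 14.01.

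Cytotoxic genes varied within both sets. Of 23 tested, 1 was higher and 1 lower at an unadjusted p under 0.05 (4.35% each, near the 4.58% and 2.83% of all genes), and the median was -0.20. Gzma, granzyme A, was at 14.99, 15.15, 15.45 and 14.98 in mPTCL 3, 4, 7 and 9, above resting (10.37 ± 0.37) and activated T cells (12.59 ± 0.98, SD, n = 3). It was at 13.35, 15.59, 10.45, 15.43 and 14.94 in mPTCL 1, 2, 5, 6 and 8, so the level was shared by most Trgv1-low lymphomas. Gzmb was at 10.81, 6.89, 14.33 and 14.54 against 7.59 to 15.17. Gzmk was at 5.00, 6.92, 14.52 and 14.27 against 8.84 to 14.77, and Gzmm at 5.53, 5.00, 12.91 and 6.60 against 6.95 to 13.04. For Gzmb and Gzmk, mPTCL 7 and 9 exceeded mPTCL 3 and 4. Of the signalling partners of NK receptors, Tyrobp (the adaptor DAP12) was at 12.96, 13.09, 6.25 and 13.65, Fcer1g at 8.20, 11.60, 6.20 and 12.57 and the kinase Syk at 10.44, 10.62, 5.00 and 9.23, each lowest in mPTCL 7. In the Trgv1-low lymphomas they ranged from 6.40 to 13.04, 7.77 to 11.59 and 5.00 to 11.75, each lowest in mPTCL 6. Both adaptors and Syk are also expressed by myeloid cells. The mean of 15 tested macrophage markers was 7.00, 11.11, 5.70 and 7.10 in mPTCL 3, 4, 7 and 9, and its part in these levels was not tested. Il2rb, shared by the interleukin 2 and 15 receptors, was at 10.13, 10.09, 12.63 and 12.41 against 9.50 to 12.35.

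The largest differences without overlap are described next, 12 in each direction. Khdc1a, of a gene family known from oocytes, stood first. It was at 14.08, 13.78, 8.77 and 11.34 in mPTCL 3, 4, 7 and 9, at 5.00, 7.49, 5.00, 7.15 and 5.00 in mPTCL 1, 2, 5, 6 and 8, and at the floor in all 6 normal arrays. The difference was 6.07 ± 1.09 (SE, adjusted p = 0.439). Akr1c12, an aldo-keto reductase, was at 11.95, 9.99, 7.74 and 10.94 against 5.00, 5.91, 5.00, 6.77 and 6.76, a difference of 4.27 ± 0.80 (SE, adjusted p = 0.439), with resting and activated T cells at 6.43 ± 0.97 and 5.43 ± 0.75. The 4 Trgv1-high lymphomas exceeded all normal arrays in both genes.

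Bcl2, the inhibitor of mitochondrial cell death, was at 13.14, 12.30, 13.84 and 12.80 against 11.44, 5.71, 11.12, 10.80 and 8.34. The difference was 3.54 ± 1.08 (SE, adjusted p = 0.612). Resting T cells were at 12.37 ± 0.44, so mPTCL 2 and 8 stood furthest from the normal level. Its antagonist Bcl2l11 (BIM) was higher too without overlap, at 12.89, 12.74, 13.16 and 13.24 against 11.51, 10.92, 12.25, 11.48 and 12.43, a difference of 1.29 ± 0.31 (SE, adjusted p = 0.550). Xiap, a caspase inhibitor, differed by 0.84 ± 0.35 (SE, adjusted p = 0.661) with overlap, and 1 of its probe sets had the other sign. Of the 15 tested survival and death genes, 3 (20%) were higher at an unadjusted p under 0.05 and 0 lower (all genes 4.58% and 2.83%).

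Themis, which tunes receptor signalling in developing T cells, was at 12.15, 10.76, 10.82 and 9.93 against 9.05, 8.42, 7.59, 8.80 and 8.30, a difference of 2.48 ± 0.46 (SE, adjusted p = 0.439). Normal T cells were near the Trgv1-high set or above it, at 11.80 ± 0.08 (resting) and 12.86 ± 0.06 (activated). Actn1, an actin crosslinker, was likewise at 12.21 ± 0.81 against 9.68 ± 0.74 (mean ± SD, n = 4 and 5) without overlap, and at 13.50 ± 0.08 in resting T cells. Fyb, the adaptor ADAP, differed by 1.16 ± 0.39 (SE, adjusted p = 0.624) with overlap. Of 24 tested genes of receptor signalling, Themis and Fyb were the 2 (8.33%, all genes 4.58%) higher at an unadjusted p under 0.05, and 0 were lower.

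Chn2, a regulator of the GTPase Rac, was at 11.06 ± 1.15 against 7.60 ± 1.70 (mean ± SD, n = 4 and 5). Cdk6, a G1 kinase, was at 12.78 ± 0.30 against 10.27 ± 2.14, and mPTCL 2 stood far below the others at 6.56. Spo11, the nuclease of meiotic recombination, was at 9.14 ± 1.36 against 6.01 ± 0.81, with activated T cells at 10.08 ± 0.31. Slc14a1, a urea transporter, was at 10.35 ± 0.31 against 7.68 ± 1.78 and Hook1, a cargo adaptor on microtubules, at 10.75 ± 0.17 against 8.11 ± 2.05. Spns3 was at 9.42 ± 0.75 against 6.80 ± 0.85 and Bmp7, a secreted growth factor, at 8.23 ± 0.81 against 5.84 ± 0.54. In all 7 the lowest Trgv1-high lymphoma exceeded the highest Trgv1-low one. The gap was small for Hook1 (10.49 against 10.41) and Spo11 (7.20 against 7.08).

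Among the lower genes Gpr15, a homing receptor of T cells for the large intestine, had the largest difference. It was at 7.31, 5.62, 5.51 and 5.00 in mPTCL 3, 4, 7 and 9 and at 11.61, 10.80, 8.55, 10.77 and 7.91 in mPTCL 1, 2, 5, 6 and 8, a difference of -4.07 ± 0.81 (SE, adjusted p = 0.439). Resting and activated T cells were at 7.93 ± 0.22 and 8.59 ± 0.20. Il18rap, a chain of the interleukin 18 receptor found on NK and effector T cells, was at 7.43, 9.78, 7.94 and 7.47 against 11.49, 12.45, 9.83, 11.28 and 11.04, a difference of -3.07 ± 0.60 (SE, adjusted p = 0.439). The gap between sets was narrow, from mPTCL 4 at 9.78 to mPTCL 5 at 9.83.

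Map2, a microtubule protein best known from neurons, was at the floor in 3 of the 4 Trgv1-high lymphomas and at 5.11 in mPTCL 9, against 8.21, 8.39, 6.38, 7.25 and 8.34. Normal T cells were at or near the floor, so the Trgv1-low lymphomas stood apart. Bcat1, which starts the breakdown of branched-chain amino acids, was at 5.00, 5.00, 5.87 and 6.79 against 7.97, 8.75, 6.80, 8.84 and 9.42. Its sets nearly touched, with mPTCL 9 at 6.79 and mPTCL 5 at 6.80. Igf2bp3, an RNA-binding protein of fetal tissue, was at 7.14 ± 0.44 against 9.24 ± 0.67. Hs3st3b1, a heparan sulfate sulfotransferase, was at 5.92 ± 0.97 against 8.96 ± 1.51, with resting T cells at 10.72 ± 0.17.

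In 4 more of the lower genes mPTCL 3 was at the floor and the other Trgv1-high lymphomas lay between it and the Trgv1-low set. They were Slc12a2, a sodium-potassium-chloride cotransporter (5.00, 8.45, 10.16 and 9.57 in mPTCL 3, 4, 7 and 9), Chd7, a chromatin remodeller (5.00, 8.64, 9.35 and 9.03), Eid2 (5.00, 7.69, 6.90 and 6.45) and the lipase gene Abhd6 (5.00, 6.91, 6.25 and 6.04). The Trgv1-low means were 11.22, 10.38, 8.81 and 8.03. Ano10 was at 5.82 ± 0.78 against 7.89 ± 0.70 and Cldnd1 at 10.20 ± 0.69 against 12.19 ± 0.79. The gap for Ano10 was narrow, from mPTCL 4 at 6.75 to mPTCL 2 at 6.82. For Cldnd1, mPTCL 7 at 11.19 lay just below mPTCL 5 and 8, both at 11.34.

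**Figure D4:**
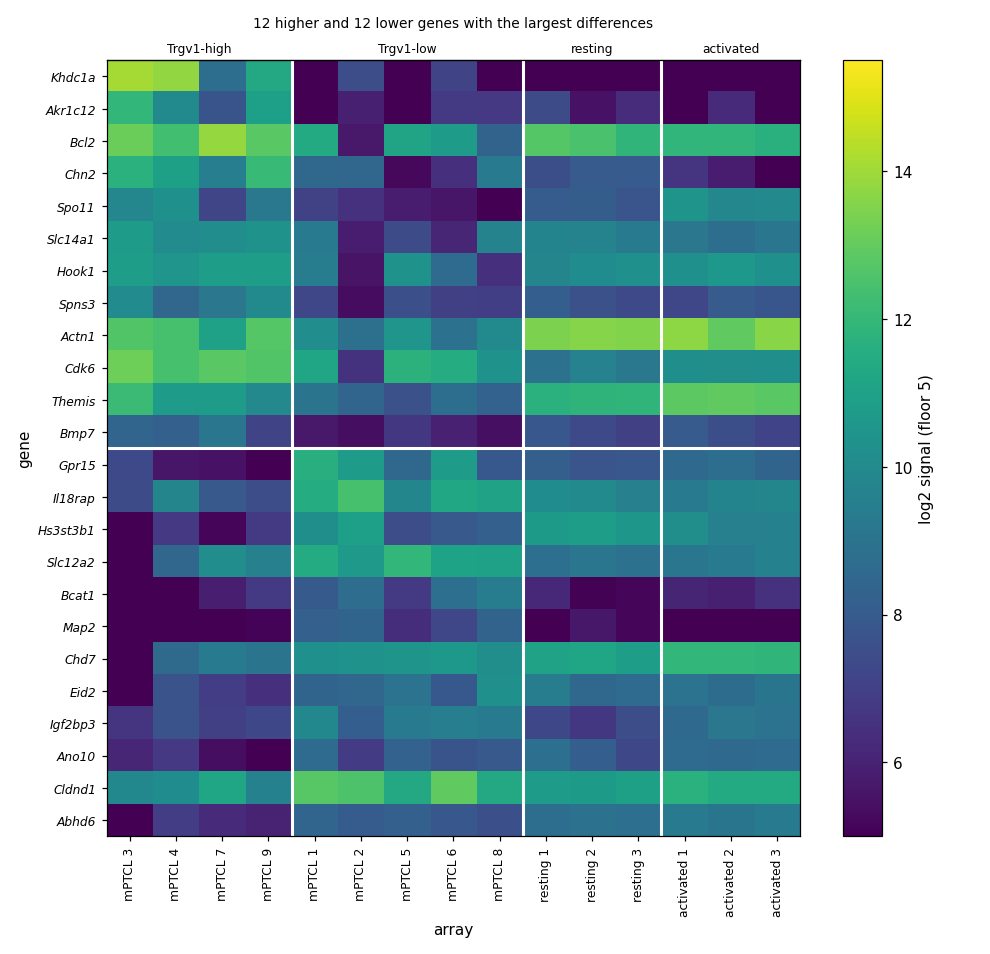
Log2 signal (colour, floor 5) in each array (columns) of the 12 higher genes (top block) and 12 lower genes (bottom block) with the largest differences among genes whose sets do not overlap. Khdc1a runs from 8.77 to 14.08 in the Trgv1-high columns, is at most 7.49 in the Trgv1-low ones and is at the floor in normal T cells.

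Normal T cells lay nearer to the Trgv1-high mean for 142 of the 209 higher genes without overlap and for 59 of the 86 lower ones. In 39 of the 209, all Trgv1-high lymphomas exceeded all 6 normal arrays, and in 97 all Trgv1-low lymphomas were below all normal arrays. In 21 of the 86 lower genes the Trgv1-high lymphomas were below every normal array, and in 39 the Trgv1-low ones were above every normal array. More of these genes thus separated the Trgv1-low lymphomas from normal T cells than the Trgv1-high ones. The 12 largest differences each way did not follow this. For the higher ones, the Trgv1-high lymphomas stood beyond all normal arrays in 6 and the Trgv1-low ones in 5, and for the lower ones in 6 and 3. The share over all genes tested was not computed, so the counts cannot be read as a trait of these genes.

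Of 16 tested Notch pathway genes, 2 (12.5%) were higher at an unadjusted p under 0.05 and 0 lower, beside 4.58% and 2.83% of all genes. Rbpj, the DNA-binding partner of cleaved Notch, was without overlap, at 11.49, 11.75, 12.40 and 11.53 against 10.35, 10.49, 10.96, 10.59 and 10.08, a difference of 1.30 ± 0.26 (SE, adjusted p = 0.439). Heyl, a target gene of Notch, was at 8.99, 10.24, 6.38 and 10.03 against 6.34, 6.40, 6.58, 6.57 and 8.41, with a difference of 2.05 ± 0.79 (SE, adjusted p = 0.646) and overlap through mPTCL 7 and 8. Stat5b, a transducer of cytokine signals, was at 10.60, 9.99, 9.33 and 9.90 against 8.73, 9.05, 9.45, 7.74 and 8.90, a difference of 1.19 ± 0.39 (SE, adjusted p = 0.612). In the list of 33 cytokine receptor and JAK-STAT genes, 3 (9.09%) were higher and 1 (3.03%) lower, which was Il18rap. The lower share is near the 2.83% of all genes, and the higher one stands beside 4.58%.

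Of 23 tested homing and chemokine receptor genes, 2 were higher and 2 lower at an unadjusted p under 0.05 (8.70% each, all genes 4.58% and 2.83%), with a median of -0.59. Of the 4, 1 lower gene passed the filter only with the Trgv1-low arrays. Itgae (CD103), the integrin that binds E-cadherin, was at 12.67, 12.50, 10.01 and 8.28 against 7.52, 7.47, 8.43, 6.65 and 6.77, a difference of 3.50 ± 0.86 (SE, adjusted p = 0.550), with mPTCL 9 just below mPTCL 5. S1pr1, the receptor for exit from tissue, named after its values were seen, was at 6.16, 7.05, 8.00 and 7.20 against 9.51, 9.24, 10.36, 7.89 and 8.61, a difference of -2.02 ± 0.54 (SE, adjusted p = 0.612). Among transcription factors of other lists, Klf2, which drives S1pr1, was at 9.09, 10.71, 8.08 and 7.06 against 10.04, 11.08, 11.69, 11.38 and 10.40, a difference of -2.18 ± 0.67 (SE, adjusted p = 0.612). Foxo1, which acts upstream of Klf2 and was also named after its values were seen, was without overlap at 9.06, 9.75, 9.89 and 10.07 against 11.38, 10.62, 11.55, 10.14 and 10.82, a difference of -1.21 ± 0.34 (SE, adjusted p = 0.612). Ahr, a ligand-activated factor of intraepithelial lymphocytes, was at 13.14, 12.61, 11.44 and 10.32 against 9.69, 8.91, 11.12, 10.18 and 6.51, a difference of 2.60 ± 0.89 (SE, adjusted p = 0.641).

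All 28 tested genes of G2 and M phase had a negative difference, with a median of -0.82. At an unadjusted p under 0.05, 5 (17.9%, all genes 2.83%) were lower. Mki67, the proliferation marker Ki-67, was at 13.07, 11.84, 12.97 and 13.83 against 13.70, 14.16, 13.26, 13.82 and 14.02, a difference of -0.86 ± 0.36 (SE, adjusted p = 0.661), lowest in mPTCL 4. Cks2, a subunit of cyclin-dependent kinases, differed by -1.29 ± 0.39 (SE, adjusted p = 0.612) and the phosphatase gene Cdc25c by -1.60 ± 0.57 (SE, adjusted p = 0.642). Ccna2, cyclin A, was at 11.46, 10.06, 11.93 and 12.95. Resting T cells had Mki67 at 9.87 ± 0.35 and activated ones at 14.04 ± 0.22. The sign over the list is counted on genes that vary together and is not a test. Of 22 immediate early genes, 21 had a negative difference, with a median of -0.81 and 3 (13.6%, all genes 2.83%) lower at an unadjusted p under 0.05. Among them, Atf3 was at 5.36, 10.47, 5.00 and 5.24 against 8.77, 9.94, 8.26, 11.15 and 8.90 and Nr4a3 at 6.60, 6.76, 9.64 and 7.97 against 9.26, 10.41, 8.76, 10.48 and 9.91.

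**Figure D5:**
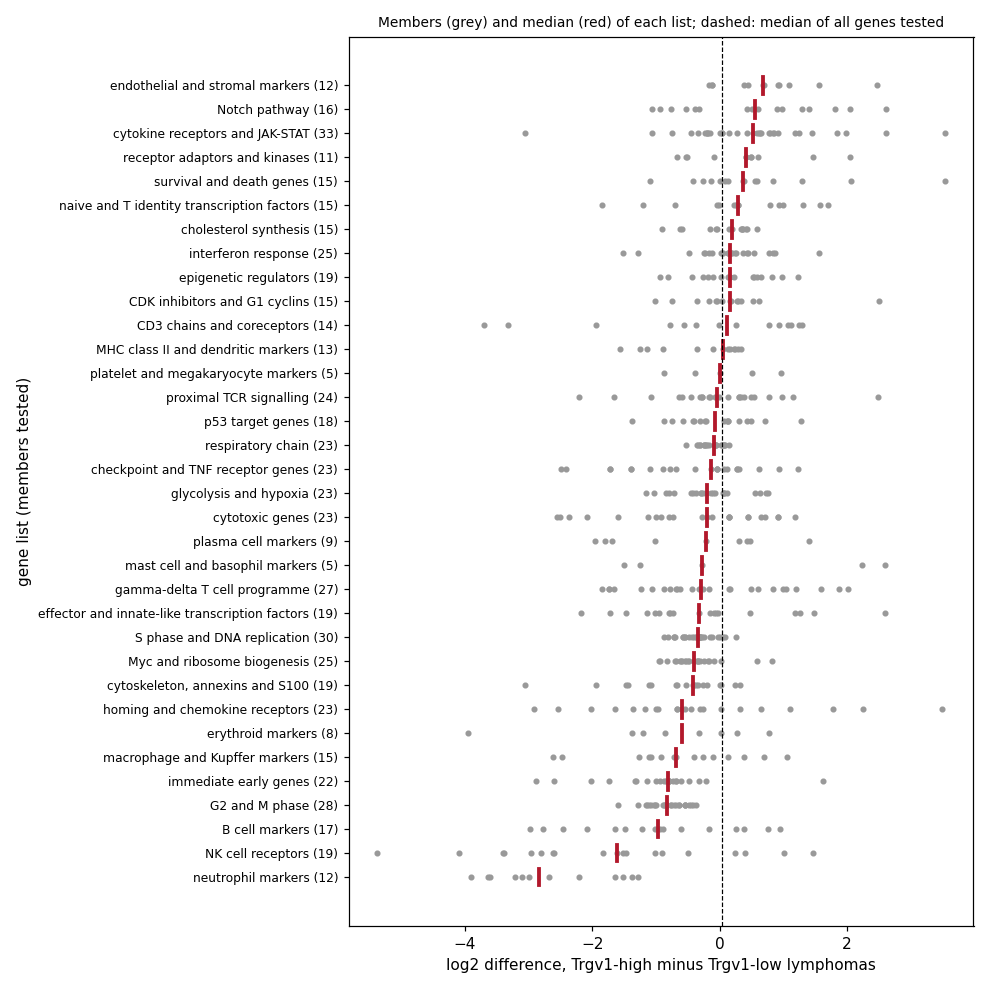
Log2 difference, Trgv1-high minus Trgv1-low lymphomas, of each tested member (grey) of each gene list with at least 5 tested members, with the list median in red and the median of all genes (0.04) dashed. The neutrophil markers (-2.84), NK receptors (-1.61) and B cell markers (-0.96) have the lowest medians.

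The list with the lowest median was that of neutrophil markers (-2.84, all 12 negative, 2 (16.7%, all genes 2.83%) lower at an unadjusted p under 0.05). Of these 12, 5 passed the filter only with the Trgv1-low arrays, 1 of the 2 among them. B cell markers (-0.96, 13 of 17 negative) and macrophage markers (-0.69, 11 of 15 negative) were on the same side. Array by array, the neutrophil, B cell and macrophage means did not fully follow the sets. In mPTCL 4 the macrophage mean (11.11) was the highest of the 9 lymphomas and the neutrophil mean (11.97) lay inside the Trgv1-low range. The highest B cell means were those of mPTCL 1 and 5. Medians of the NK, cell cycle and immediate early lists were recomputed with the neutrophil or the B cell mean as a covariate. With the neutrophil mean the medians were -2.08 for NK receptors, -1.28 for G2 and M phase and -0.50 for immediate early genes. With the B cell mean they were -1.77, -1.08 and -0.77, and limma called no gene with either. The B cell list itself changed sign with the neutrophil mean, to a median of 0.43 with 12 of 17 positive. The neutrophil list had a median of -1.95 with the B cell mean, all 12 negative. The macrophage mean was not used as a covariate. Lists with medians near that of all genes included receptor signalling (-0.04, 24 tested), p53 target genes (-0.07, 18), the respiratory chain (-0.09, 23), glycolysis and hypoxia (-0.20, 23) and the interferon response (0.17, 25).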

How the data were processed

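RNA of 9 lymphomas and 6 normal T cell samples was measured on single-colour 3' arrays. The values used are the intensity per probe set that the authors deposited, made by the MAS5 method of Affymetrix Expression Console, per the submitters' processing notes, which name version 1.1 for the lymphoma arrays only. The normal samples were amplified from 50 ng of RNA with the GeneChip 3' IVT Express Kit, per the labels' protocols. Every array has a 2% trimmed mean of 500, so scaling preceded deposit. The ratio of the 3' to the 5' control probe set of Gapdh was 1.98 to 2.09 in the Trgv1-high arrays. It was 1.87, 1.85, 2.10, 1.26 and 1.43 in mPTCL 1, 2, 5, 6 and 8. For actin the ratio was 1.64 to 2.41 in the Trgv1-high and 1.47 to 2.65 in the Trgv1-low arrays. The part of RNA quality in the differences was not tested. The chip name and build are not given in the sources used here.

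Lymphomas were split at a deposited Trgv1 signal of 1450. Before taking log2, signals under 32 were raised to 32. In all, 34958 probe sets carry 1 symbol, 932 several and 9211 none in the platform annotation, and the identifiers of 34741 of the 34945 probe sets used were found in the RefSeq gene table, which then gave the symbol. The brightest probe set (highest mean log2 over the 15 arrays) stands for a gene, which was tested where at least 3 arrays reached 100. The 4 and 5 arrays were compared with limma 3.58.1 (lmFit, eBayes with trend, R 4.3.3), with Benjamini-Hochberg adjustment over 11901 genes. The scripts were tested on simulated data with less noise than these lymphomas show. That checks the code and not the power to find differences at the spread of these arrays. Genes named are the 12 largest differences each way among genes without overlap and an unadjusted p under 0.05 (leaving out controls, predicted and clone-named genes, sex-linked genes and immunoglobulin or receptor segments), up to 3 members per list by size of difference, and a fixed set of T and NK cell genes. A further 16 were named after their values were seen: Fyb, Klrc2, Klrc3, Klrg1, Notch3, Rbpj, Xiap, Stat5b, S1pr1, Foxo1, Tdrd9, Cxcl2, Eif2s3y, Camp, Lcn2 and Ms4a2. The members and lists were chosen with earlier results of these data known. Of 88 genes named, with Hdc not counted, 47 have several probe sets that passed. In 4 of these (Sox4, Zap70, Maf and Xiap) another probe set differs in sign. Alternatives covered floor, filter, normalization, probe sets, fit and left-out arrays. The number of arrays limits the precision.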

Additional observations from a re-analysis of the deposited data

Results flagged for a closer look

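In 24 of 176 sets of values examined (4 or 5 lymphomas for each of 88 genes), 1 lymphoma stood apart from the rest of its set by Dixon's 95% criterion. Its rate of about 1 of 20 sets holds for values without ties and does not apply here. Where the rest of a set is tied at the floor, any value above it is flagged, as for Map2, Rag1, Cd4, Ms4a2 and, in mPTCL 9, Klrc2. Many of the genes were also named for their values, so the count is a description only. All values are log2 signals, with a floor of 5.

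Among the Trgv1-high lymphomas, mPTCL 4 was apart for Klrk1 (9.87), Atf3 (10.47), Cxcl2 (11.24), Hook1 (10.49) and Ms4a2 (5.61). For mPTCL 9 these were Klrc1 (11.40), Klrc2 (6.72) and Map2 (5.11), the others being at or near the floor. mPTCL 7 was low for Tyrobp (6.25) and Actn1 (11.004). mPTCL 3 was at 5 for Chd7 and Eif2s3y and at 6.13 for Cd4, where the other three were at the floor.

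Among the Trgv1-low lymphomas, mPTCL 5 was low for Cd3e (9.03), Zap70 (9.18), Cd247 (7.01), Lat (9.09) and Klrc2 (5). These are 4 genes of the receptor complex and its signalling in the lymphoma with the highest B cell and neutrophil marker means, 11.14 and 12.31, whose part in these levels was not tested. mPTCL 2 was low for Spns3 (5.34) and Cdk6 (6.56) and high for Cpa3 (11.22). mPTCL 8 was high for Heyl (8.41) and Rag1 (6.28), and mPTCL 6 was low for Tyrobp (6.40).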

How the results depend on the processing

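No gene was called with the 4 and 5 lymphomas compared as deposited, and none was called under the other floors, filters, normalizations, probe set choices, variance models and covariates tried, nor without any single lymphoma. With all 15 arrays in 1 fit, 18 genes were called higher and 7 lower, and 992 and 643 had an unadjusted p under 0.05. That fit takes its spread from the normal T cells too, so these calls are no support for a difference between the lymphomas. Without mPTCL 1, 4 and 5 none was called higher and 3 lower (Klrk1, Tdrd9 and Cxcl2). The last 2 passed the filter only with the Trgv1-low arrays, and for Klrk1 the arrays left out were those nearest to the other set. In that comparison 706 and 569 genes had an unadjusted p under 0.05, and 1204 and 824 were without overlap, with fewer arrays to overlap. Genes at an unadjusted p under 0.05 were 826 higher and 672 lower with array weights, 970 and 772 with the B cell marker mean as a covariate, and 871 and 688 with the neutrophil mean. With 1 lymphoma left out they were 324 to 746 higher and 175 to 643 lower; the count was lowest in both directions without mPTCL 3 and highest without mPTCL 5. Genes without overlap were then 268 to 467 higher and 112 to 310 lower. Centring on the median gave 134 lower genes without overlap. The causes were not tested.

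Of 88 named genes, 75 were tested under all 25 alternatives, and 64 of these kept the sign of their difference throughout. The other 13 were tested under 22 to 24, and 10 of them kept it. With 1 lymphoma left out, genes whose sign changed somewhere ranged from -0.89 to 0.54 (Blk), -0.57 to 0.83 (Cd3d), -0.26 to 1.38 (Cd8a), -1.49 to 0.63 (Fcer1g), -1.36 to 1.30 (Gzmb), -0.30 to 0.55 (Il2rb), -1.33 to 0.19 (Lat), -0.35 to 1.76 (Syk), -0.51 to 2.35 (Tyrobp), -0.50 to 2.12 (Eif2s3y), -0.065 to 2.56 (Xist), 0.31 to 1.60 (Gzma, 1.19 over all 9), -4.99 to -2.25 (Lcn2) and -0.43 to -0.04 (Ms4a2). Array weights turned Blk to 0.47, Il2rb to -0.29 and Eif2s3y to -0.59, the B cell covariate turned Blk to 0.74 and Il2rb to -0.16, and the neutrophil covariate to 1.27 and -0.44, with Fcer1g at 1.28, Lcn2 at 0.49 and Ms4a2 at 0.0012. The neutrophil covariate also gave -3.40 for Gzmb, 2.65 for Syk, 2.66 for Tyrobp, -1.47 for Lat, -0.81 for Cd3d and 2.38 for Eif2s3y, beyond their ranges above. Without mPTCL 1, 4 and 5, Blk was 0.89, Cd3d 0.62 and Gzma -0.18. No paired analysis was possible because the 2 sets of lymphomas share no replicate number. Signals below the floor of 32 have no order.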
